A study of Mus musculus with 6 samples.

Results

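Acta2, Tagln, Myh11, Cnn1, Des, Rgs5, Cspg4, Mcam, Myl9 and Tpm2 are genes that mark smooth muscle cells and pericytes, the cells that wrap the outside of blood vessels. They were followed here in RNA from sorted kidney endothelial cells (ECs) of mice with and without Rbpj in their ECs. The 10 genes were chosen by name from the 55401 genes in the table of counts, with earlier results of these data known, and 9 of them were among the 18438 genes with enough counts for a test. The RbpjΔEC group (3 male mice) had the genotype Cdh5CreERT2/-; Rbpjf/f, in which a Cre recombinase driven by the endothelial Cdh5 promoter becomes active with tamoxifen and cuts the floxed Rbpj gene. The CTRL group (3 male mice) were littermates of the genotype Cre -/-; Rbpjf/f, so they carried the same floxed alleles and also received tamoxifen, but no Cre. All mice were given 5 doses of 1.5 mg of tamoxifen at 8 weeks of age and their kidneys were taken 12 weeks later, while the labels give an age of 21 weeks. ECs were enriched with beads and sorted as CD31+ CD45- cells, and 1 library was made from each mouse.

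Smooth muscle cells contract by sliding an actin and myosin apparatus of their own, built from muscle-specific actin, myosin heavy and light chains, tropomyosin and calponin. Pericytes sit on capillaries, share part of that apparatus and are recognised by surface proteins and by signalling proteins such as Rgs5. Both cell types lie outside the endothelium and carry no CD31, and Notch signals passed from ECs to them through Jag1 and Notch3 are known to support the contractile state.

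In RbpjΔEC all 10 genes, the untested Cnn1 included, had lower mean levels than in CTRL, and 3 of the 9 tested passed the test: the smooth muscle actin Acta2, the smooth muscle myosin Myh11 and the pericyte regulator Rgs5, beside 0.559% of all tested genes called lower. That count was 0 without CTRL 1 or without RbpjΔEC 1 and 6 without RbpjΔEC 3. The mean levels of Acta2, Myh11 and Rgs5 were 40.7%, 47.2% and 54.4% of CTRL. Cspg4, Des and Myl9 had folds of the same size but did not pass, and Tagln and Mcam had groups that overlapped. No gene of the 10 was called higher.

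Total counts on genes lay between 39649171 and 47726850 per library, so that 3 counts, taken as the floor, equalled 0.0634 to 0.0749 CPM (counts scaled to a common library size with edgeR's TMM factors). In CTRL 1, 33764 genes had a count, and in each of the others 25629 to 26785 did. Rbpj had 28.1, 29.7 and 29.8 CPM in CTRL 1 to 3 and 28.9, 26.1 and 29.6 CPM in RbpjΔEC 1 to 3 (log2 fold change -0.05, adjusted p = 0.793 by edgeR's quasi-likelihood test, with p-values adjusted by the Benjamini-Hochberg method over all tested genes). Since the counts cover the whole gene they do not show the floxed part, so the libraries were grouped by the labels. The authors reported recombination of the Rbpj locus in this mouse line, and lower Hey1 and Jag1 in the sequenced RbpjΔEC ECs. The 10 endothelial markers, Pecam1, Cdh5 and Kdr among them, were present at a summed level of 21527 to 23669 CPM in CTRL and 19507 to 19826 CPM in RbpjΔEC, with 8 lower, 2 higher and 0 called (at an unadjusted p under 0.05, 4 were lower and 1 higher, and DESeq2 called 4, all lower). Over all tested genes, 103 were called lower in RbpjΔEC (0.559% of those tested) and 106 higher (0.575%), at an adjusted p under 0.05.

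The promoter sequences of 3 of the genes are shown for comparison, since Acta2 and Myl9 hold close matches to the CArG box, the motif bound by serum response factor (Srf), and Rgs5 does not. Each is the 250 bases before the RefSeq start on the gene's own strand, 5′ to 3′, from GRCm38.p6. Capitals mark CArG boxes, with at most 1 of the 6 middle bases being C or G, and TGGGAA, a motif bound by the Rbpj protein. In Acta2 the second CArG box and TGGGAA overlap.
Acta2 (chr19:34255374-34255623, minus strand): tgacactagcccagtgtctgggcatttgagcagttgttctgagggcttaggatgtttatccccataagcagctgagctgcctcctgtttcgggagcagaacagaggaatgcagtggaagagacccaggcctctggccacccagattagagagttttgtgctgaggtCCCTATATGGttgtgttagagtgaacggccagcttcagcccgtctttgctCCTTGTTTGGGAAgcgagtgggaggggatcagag
Myl9 (chr2:156775214-156775463, plus strand): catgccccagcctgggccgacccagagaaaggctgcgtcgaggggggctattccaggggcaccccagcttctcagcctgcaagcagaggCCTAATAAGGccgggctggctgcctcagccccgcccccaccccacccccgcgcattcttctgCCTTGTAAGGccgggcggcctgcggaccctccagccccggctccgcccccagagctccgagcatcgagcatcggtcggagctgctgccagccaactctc
Rgs5 (chr1:169655251-169655500, plus strand): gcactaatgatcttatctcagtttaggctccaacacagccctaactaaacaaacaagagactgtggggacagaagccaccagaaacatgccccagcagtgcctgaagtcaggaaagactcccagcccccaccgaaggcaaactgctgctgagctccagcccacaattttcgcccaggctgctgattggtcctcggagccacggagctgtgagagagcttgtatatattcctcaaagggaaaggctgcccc

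Promoters were found for 8 of the 10 genes, those of Acta2, Cnn1, Des, Rgs5, Cspg4, Mcam, Myl9 and Tpm2. Acta2 held CCCTATATGG at 84 bases and CCTTGTTTGG at 34 bases before the start, each with 1 middle base that is C or G, and TGGGAA at 27 bases. Myl9 held a full CArG box, CCTAATAAGG, at 161 bases and CCTTGTAAGG, with 1 such base, at 99 bases. The other 6 promoters held none of these motifs in this window. Of 32851 mouse promoters of the same length, 1.47% held a full CArG box on either strand, 8.59% held one with at most 1 such base and 21.6% held TGGGAA on either strand. A match of letters is a description and was not measured as a bound site.

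The contractile genes are taken first. Acta2 (chromosome 19 from 34241090 to 34255590 in the GRCm38 gene models) encodes smooth muscle alpha-actin, the filament on which the motor pulls. It had 9.43, 9.76 and 11.5 CPM in CTRL 1 to 3 and 4.39, 2.57 and 5.52 CPM in RbpjΔEC 1 to 3. Every RbpjΔEC library lay below every CTRL library, with RbpjΔEC 2 the lowest. The mean level was 10.2 ± 1.12 CPM in CTRL against 4.16 ± 1.48 CPM in RbpjΔEC (SD, n = 3 each), a log2 fold change of -1.30 (SE 0.240, 95% interval -1.83 to -0.77, adjusted p = 0.0369 by edgeR's quasi-likelihood test). Its promoter is the one printed above with the paired CArG-like motifs.

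Myh11 (chromosome 16 from 14194535 to 14291372) encodes the smooth muscle myosin heavy chain, the motor itself and the marker most restricted to smooth muscle. It had 34.4, 25.9 and 28.7 CPM in CTRL 1 to 3 and 16.0, 9.85 and 16.2 CPM in RbpjΔEC 1 to 3. The groups did not overlap and RbpjΔEC 2 was again the lowest. The mean fell from 29.7 ± 4.34 CPM to 14.003 ± 3.60 CPM (SD, n = 3 each), a log2 fold change of -1.08 (SE 0.194, 95% interval -1.53 to -0.64, adjusted p = 0.0468 by edgeR's quasi-likelihood test).

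Myl9, whose promoter holds the full CArG box, lies on chromosome 2 from 156775420 to 156781658 and encodes the regulatory myosin light chain that is phosphorylated to start contraction. It had 5.11, 4.08 and 4.12 CPM in CTRL 1 to 3 and 1.54, 1.00 and 3.29 CPM in RbpjΔEC 1 to 3. The groups did not overlap, but RbpjΔEC 3 lay much nearer to CTRL than the other RbpjΔEC libraries. The log2 fold change was -1.19 (SE 0.374, 95% interval -2.03 to -0.36) and the adjusted p was 0.144 by edgeR's quasi-likelihood test, which did not pass. By DESeq2's Wald test the adjusted p of Myl9 was 0.0455.

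Tpm2 (chromosome 4 from 43514711 to 43523765) encodes beta-tropomyosin, which lies along the actin filament. It had 3.79, 3.87 and 3.88 CPM in CTRL 1 to 3 and 2.61, 2.03 and 2.77 CPM in RbpjΔEC 1 to 3. Tpm2 varied least of the 10 among CTRL libraries, and the groups did not overlap. Its log2 fold change was -0.64 (SE 0.215, 95% interval -1.11 to -0.17, adjusted p = 0.155 by edgeR's quasi-likelihood test), which did not pass.

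Des (chromosome 1 from 75360329 to 75368579) encodes desmin, the intermediate filament of muscle cells, which is also found in pericytes and in mesangial cells of the glomerulus. It had 6.14, 5.26 and 4.52 CPM in CTRL 1 to 3 and 1.38, 1.05 and 3.69 CPM in RbpjΔEC 1 to 3. Des had the largest fold of the 9 tested genes with all 6 libraries, although RbpjΔEC 3 stood far above the other RbpjΔEC libraries. That rank was not stable. Acta2 had the larger log2 fold change without CTRL 1 (-1.36 against -1.27 for Des) and without RbpjΔEC 1 (-1.34 against -1.16). The log2 fold change was -1.38 (SE 0.427, 95% interval -2.36 to -0.40, adjusted p = 0.153 by edgeR's quasi-likelihood test), against 0.0134 by DESeq2's Wald test.

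Tagln (chromosome 9 from 45929619 to 45936058) encodes transgelin, an actin-bundling protein of smooth muscle. It had 2.87, 4.35 and 3.55 CPM in CTRL 1 to 3 and 2.86, 2.46 and 3.04 CPM in RbpjΔEC 1 to 3. The groups overlapped, since RbpjΔEC 3 lay above CTRL 1. The log2 fold change was -0.37 (SE 0.229, 95% interval -0.87 to 0.13, adjusted p = 0.435 by edgeR's quasi-likelihood test), and -0.21 without CTRL 2. Of its 1988 exonic bases, 1241 (62.4%) are also exonic in Gm48529, on the opposite strand. Gm48529 had 5.77 ± 0.158 CPM in CTRL against 5.92 ± 0.901 CPM in RbpjΔEC (SD, n = 3 each). Pcsk7 also overlaps Tagln on that strand. The strand setting of the counting is not given in the sources used here, so reads of Tagln and of these partners may not have been told apart and its value is uncertain.

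Cnn1 (chromosome 9 from 22099216 to 22109630) encodes calponin 1, an actin-binding protein of differentiated smooth muscle. It had 16, 10 and 9 counts in CTRL 1 to 3 and 6, 2 and 15 counts in RbpjΔEC 1 to 3, too few to pass the low-count filter. The groups overlapped, with RbpjΔEC 3 above both CTRL 2 and CTRL 3. The summed counts were 35 in CTRL (exact Poisson 95% interval 24.4 to 48.7) and 23 in RbpjΔEC (14.6 to 34.5). These intervals cover counting error only, and at this depth no difference could be detected.

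**Figure D1:**
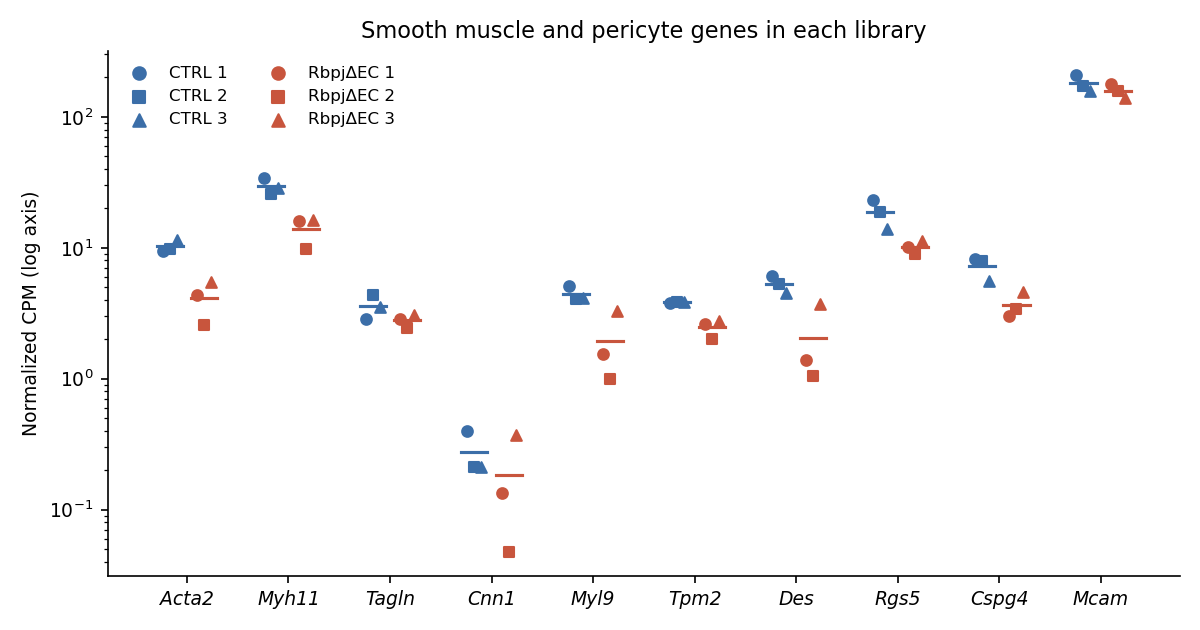
Level of the 10 genes in each library, in CPM on a log axis, with a point per library, blue for CTRL and red for RbpjΔEC, and a line at each group mean. In 7 genes every RbpjΔEC point lies below every CTRL point, beside 11.6% of all tested genes, while Tagln, Cnn1 and Mcam overlap.

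Among the pericyte genes, Rgs5 (chromosome 1 from 169655501 to 169695813) encodes a regulator that shortens G protein signals. It had 23.3, 18.7 and 13.9 CPM in CTRL 1 to 3 and 10.2, 8.92 and 11.3 CPM in RbpjΔEC 1 to 3. The groups did not overlap, and the CTRL libraries were spread more widely than the RbpjΔEC libraries. Its mean fell from 18.6 ± 4.69 CPM to 10.1 ± 1.21 CPM (SD, n = 3 each), a log2 fold change of -0.88 (SE 0.176, 95% interval -1.27 to -0.49, adjusted p = 0.0468 by edgeR's quasi-likelihood test). Its promoter held none of the motifs marked in those of Acta2 and Myl9.

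Cspg4 (chromosome 9 from 56865033 to 56899870) encodes NG2, a proteoglycan on the pericyte surface. It had 8.26, 7.86 and 5.54 CPM in CTRL 1 to 3 and 3.01, 3.39 and 4.57 CPM in RbpjΔEC 1 to 3. The groups did not overlap, with CTRL 3 the lowest CTRL library and RbpjΔEC 3 the highest of its group. The log2 fold change was -0.98 (SE 0.218, 95% interval -1.46 to -0.51) and the adjusted p of Cspg4, 0.0550 by edgeR's quasi-likelihood test, missed the threshold, against 0.00412 by DESeq2's Wald test.

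Mcam (chromosome 9 from 44134469 to 44142727) encodes CD146, an adhesion protein known from pericytes, smooth muscle cells and ECs alike. It had 210.2, 170.9 and 158.5 CPM in CTRL 1 to 3 and 176.7, 158.7 and 138.9 CPM in RbpjΔEC 1 to 3. The groups overlapped, with a log2 fold change of -0.19 (SE 0.117, 95% interval -0.45 to 0.08, adjusted p = 0.447 by edgeR's quasi-likelihood test), which was -0.06 without CTRL 1 and -0.10 without RbpjΔEC 3. Mcam was the one gene of the 9 tested in which RbpjΔEC 3 was the lowest of its group.

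Per kilobase of exon, Mcam stood far above the others in CTRL, at 53.7 ± 8.05 CPM per kb (SD, n = 3). Acta2 (4.66 ± 0.509), Rgs5 (4.10 ± 1.03), Myh11 (3.90 ± 0.571) and Myl9 (3.82 ± 0.504 CPM per kb, SD, n = 3) followed, and their ranges over the CTRL libraries overlapped, so their order was not resolved. Tagln (1.81 ± 0.373), Des (1.41 ± 0.215) and Tpm2 (1.32 ± 0.0168 CPM per kb, SD, n = 3) came next, and the range of Des overlapped those of the other two, while Tagln lay above Tpm2 in every CTRL library. Cspg4 (0.605 ± 0.123) and Cnn1 (0.10 ± 0.0394 CPM per kb, SD, n = 3) were the lowest, each below the range of the gene before it. In RbpjΔEC the means after Mcam were led by Rgs5 (2.23 ± 0.266 CPM per kb, SD, n = 3) and Acta2 (1.89 ± 0.676 CPM per kb, SD, n = 3), but their ranges overlapped and those of Acta2, Myh11 and Myl9 overlapped that of Tagln, so the order there was not resolved.

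Together the 10 genes summed to 263.1 ± 36.2 CPM in CTRL against 199.5 ± 16.7 CPM in RbpjΔEC (SD, n = 3 each), but Mcam made up 68.3% of the first sum and 79.2% of the second. Without Mcam the sum was 83.2 ± 9.28 CPM in CTRL against 41.4 ± 9.75 CPM in RbpjΔEC (SD, n = 3 each), or 49.7% of CTRL. The libraries came from cells sorted as CD31+ CD45-, while mural cells carry no CD31. In such bulk samples, fewer mural cells carried through the sort, less of these RNAs per cell and expression by the ECs themselves cannot be told apart.

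Counted over the 9 tested genes, 3 were called lower, beside 0.559% of all tested genes, and 0 were called higher. At an unadjusted p under 0.05, 7 of the 9 were lower, beside 8.62% of all tested genes, and in 7 of the 9 all RbpjΔEC libraries lay below all CTRL libraries, beside 11.6% of all tested genes. The median log2 fold change was -0.98, against 0.01 over all tested genes. In an exact permutation test of the mean CPM, two-sided, the 7 genes without overlap reached p = 0.1, which is the lowest that 3 against 3 can give. Tagln had p = 0.2, Cnn1 p = 0.4 and Mcam p = 0.5 in the same exact test. The genes passed the low-count filter in both groups, with a lowest count of 42 in any library.

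**Figure D2:**
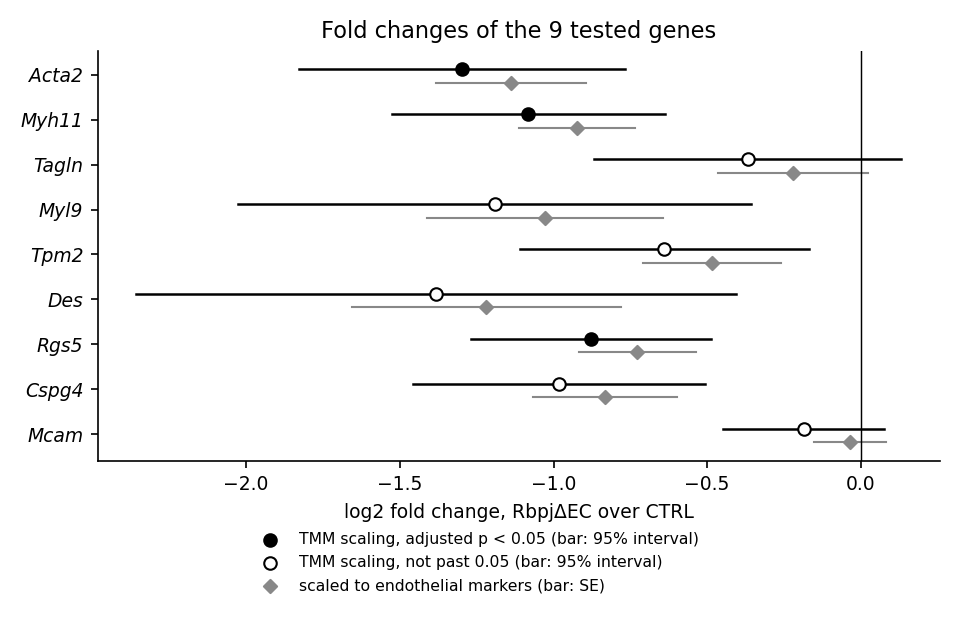
Log2 fold change (RbpjΔEC over CTRL) of the 9 tested genes with TMM scaling (circles with the 95% interval, filled where the adjusted p passed 0.05) and with scaling to the endothelial markers (grey diamonds with the SE). The TMM values run from -1.38 for Des to -0.19 for Mcam, and the 95% intervals of Tagln and Mcam include 0.

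The calls depended on single libraries and on the method. Without CTRL 1 or without RbpjΔEC 1, 0 of the genes passed, while calls over all genes fell from 209 to 54 and 21. Acta2 also did not pass without CTRL 3, and its adjusted p by edgeR's quasi-likelihood test was 0.0956 without CTRL 1, 0.15 without CTRL 3 and 0.154 without RbpjΔEC 1, at log2 fold changes of -1.36, -1.21 and -1.34. Myh11 lost its call in the same fits, with an adjusted p by that edgeR test of 0.127, 0.172 and 0.106 at log2 fold changes of -0.97, -1.11 and -1.19. Rgs5 lost it without CTRL 1 (0.120), CTRL 2 (0.0599), RbpjΔEC 1 (0.186) and RbpjΔEC 2 (0.135). Without RbpjΔEC 3, 6 genes passed, with Cspg4 (0.0187), Des (0.00247) and Myl9 (0.00789) added and log2 fold changes of -2.12 for Des and -1.80 for Myl9, while calls over all genes rose to 521. Rgs5 also missed the threshold with library size alone (0.0553), with limma-voom (0.0592) and with a filter of at least 1 CPM in 3 libraries (0.0523), and Myh11 missed it with that filter (0.0506). DESeq2's Wald test called the same 6 of the 10 genes, beside 0.84% of all genes called lower by DESeq2, and the edgeR fit without the low-count filter also called 6, beside 1.88% of all genes.

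RbpjΔEC 3 was the highest library of its group in 8 of the 9 tested genes and RbpjΔEC 2 the lowest in 7. CTRL 1, in which 33764 genes had a count, was the highest of its group in 6 of the 9. Relative to the CTRL mean, the median log2 level of the 9 genes was -0.89 in RbpjΔEC 1, -1.09 in RbpjΔEC 2 and -0.52 in RbpjΔEC 3, and 0.20, -0.01 and -0.11 in CTRL 1 to 3. Genes of another kidney cell type were likewise higher in RbpjΔEC 3 than in RbpjΔEC 1 and 2: the proximal tubule genes Lrp2 and Slc34a1 summed to 202.8 CPM in RbpjΔEC 3, against 46.3 and 48.5 CPM in RbpjΔEC 1 and 2 and 19.9 to 62.3 CPM in CTRL. Their part in the spread of the smooth muscle and pericyte genes was not tested.

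**Figure D3:**
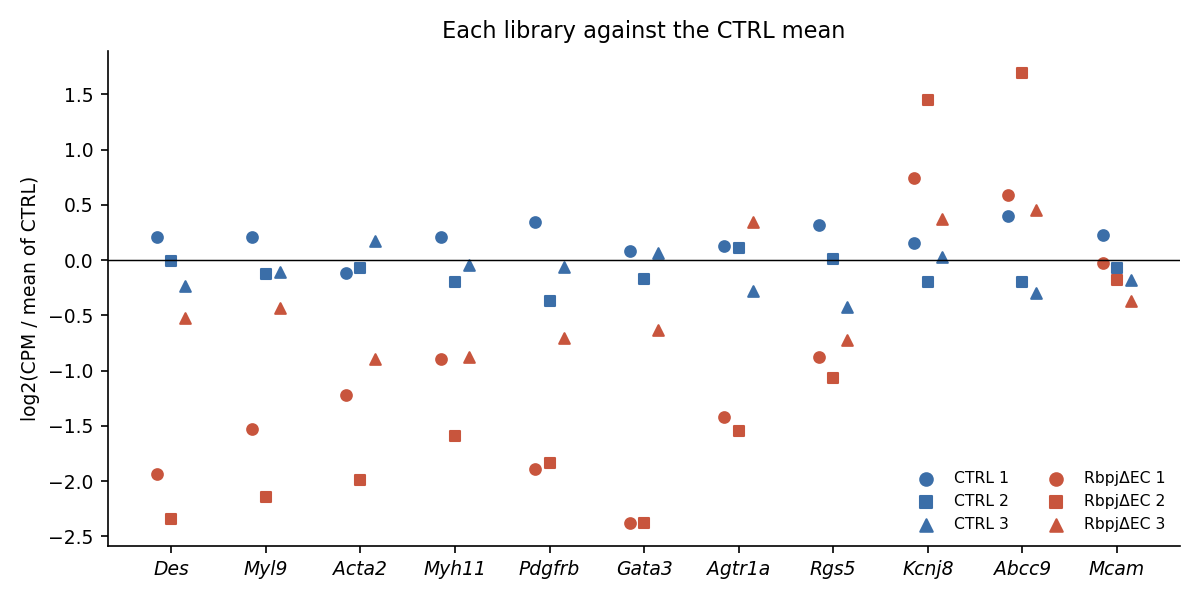
Log2 of CPM over the CTRL mean (vertical axis) in each library, for 6 of the smooth muscle and pericyte genes and 5 other genes, with a marker shape per mouse and a colour per group. In Des, RbpjΔEC 1 to 3 lie at -1.94, -2.34 and -0.52, and in Acta2 at -1.22, -1.99 and -0.89, while in Kcnj8 and Abcc9 all 3 lie above 0.

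Several further lists show what else of these cells was present. Of 20 other contractile genes, 17 were tested, 13 were lower and 4 higher, and the median log2 fold change was -0.19. The 2 genes called, both lower, were Sorbs2, an adaptor at actin attachment sites, with a log2 fold change of -0.51 (adjusted p = 0.0191 by edgeR's quasi-likelihood test), and the actin crosslinker Actn1, with -0.53 (adjusted p = 0.0384). Both have roles outside smooth muscle. The call of Sorbs2 was lost without CTRL 3 (0.0929), RbpjΔEC 1 (0.0635) or RbpjΔEC 2 (0.0823), and that of Actn1 without CTRL 1 (0.134) or any of these 3 libraries (0.0917, 0.0742 and 0.116). Pln, the phospholamban gene of muscle, had -1.83 and missed the threshold (adjusted p = 0.0602), though it passed by DESeq2 (0.0464) and by edgeR without RbpjΔEC 3 (0.0497).

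Of 15 other pericyte genes, 12 were tested, of which 10 were lower and 2 higher, with 1 called and a median log2 fold change of -0.95. The called gene was Angpt1, the mural ligand of the endothelial receptor Tek, which fell from a mean of 7.83 ± 1.42 CPM to 3.40 ± 0.445 CPM (SD, n = 3 each), a log2 fold change of -1.20 (adjusted p = 0.0167 by edgeR's quasi-likelihood test). Without CTRL 3, RbpjΔEC 1 or RbpjΔEC 2 the adjusted p of Angpt1 was 0.0917, 0.0900 and 0.0734 by the same test. Notch3, the Notch receptor of mural cells, had 13.7, 9.76 and 7.13 CPM in CTRL 1 to 3 and 4.17, 3.84 and 5.66 CPM in RbpjΔEC 1 to 3. The groups of Notch3 did not overlap, and its log2 fold change of -1.16 missed the threshold (adjusted p = 0.0522 from the same test). Gucy1b1, a subunit of the nitric oxide receptor, had -1.09 (adjusted p = 0.0803) and Pdgfrb, the platelet-derived growth factor receptor of pericytes, had -1.37 (adjusted p = 0.110). DESeq2's Wald test called Pdgfrb (adjusted p = 0.000221) and Notch3 (0.000315) as lower, and both passed edgeR's test without RbpjΔEC 3 (0.00173 and 0.0190). The median of the list was -0.63 without CTRL 1.

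Kcnj8 and Abcc9, chosen after their values were seen, went the other way from the other pericyte genes. They encode the pore and the regulatory subunit of the vascular ATP-sensitive potassium channel and lie side by side on chromosome 6. Kcnj8 had 12.3, 9.65 and 11.3 CPM in CTRL 1 to 3 and 18.6, 30.3 and 14.3 CPM in RbpjΔEC 1 to 3 (log2 fold change 0.93, adjusted p = 0.162 by edgeR's quasi-likelihood test). Abcc9 had 16.5, 10.9 and 10.2 CPM in CTRL 1 to 3 and 18.9, 40.5 and 17.2 CPM in RbpjΔEC 1 to 3 (log2 fold change 1.03, adjusted p = 0.307 from the same test). In both genes every RbpjΔEC library lay above every CTRL library, with RbpjΔEC 2 far above the rest, and neither passed with all 6 libraries by edgeR. DESeq2's Wald test called Kcnj8 as higher (adjusted p = 0.00261) but not Abcc9 (0.414), and Kcnj8 also passed edgeR's test without RbpjΔEC 3 (0.0140). Without RbpjΔEC 2 the log2 fold changes were 0.57 for Kcnj8 and 0.53 for Abcc9.

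Among 10 regulators of smooth muscle genes, 8 were tested, 4 were lower and 4 higher, and the edgeR test called 0, while 1 lower and 1 higher had an unadjusted p under 0.05 and DESeq2 called Srf, as higher. Srf, which binds the CArG box, had 48.7, 48.9 and 44.99 CPM in CTRL 1 to 3 and 60.1, 62.8 and 56.8 CPM in RbpjΔEC 1 to 3. Every RbpjΔEC library lay above CTRL, with a log2 fold change of 0.33 (adjusted p = 0.0600 by edgeR's quasi-likelihood test, 0.0475 without CTRL 2 and 0.0407 without RbpjΔEC 3, and 0.0373 by DESeq2). Myocd, the smooth muscle partner of Srf, was near the floor, at 0.577 ± 0.25 CPM in CTRL against 0.172 ± 0.0493 CPM in RbpjΔEC (SD, n = 3 each). The log2 fold change of Myocd was -1.72 (adjusted p = 0.148), which did not pass. Heyl, a Notch target of mural cells, had -0.96 (adjusted p = 0.324), and its groups overlapped.

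Of 8 genes listed for renin and mesangial cells, all 8 were tested and lower, 2 were called, and the median log2 fold change was -1.28. Ptn, a secreted growth factor, had a log2 fold change of -1.25 (adjusted p = 0.0154 by edgeR's quasi-likelihood test) and Pdgfra, a receptor of mesenchymal cells, had -1.67 (adjusted p = 0.0468). Ptn lost its call without CTRL 3 (0.0929), RbpjΔEC 1 (0.0900) or RbpjΔEC 2 (0.0584), and Pdgfra without these (0.173, 0.186 and 0.135) or CTRL 1 (0.147). Ren1, the renin gene, had 2.17, 3.00 and 2.32 CPM in CTRL 1 to 3 and 0.758, 1.07 and 1.55 CPM in RbpjΔEC 1 to 3, without overlap, and did not pass (log2 fold change -1.15, adjusted p = 0.0982 from the same test, and 0.0426 without RbpjΔEC 3).

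Of 12 fibroblast genes, 5 were tested, all 5 were lower and 1 was called. That gene was Pi16, at 149.3 ± 16.3 CPM in CTRL against 81.4 ± 12.5 CPM in RbpjΔEC (SD, n = 3 each) (log2 fold change -0.88, adjusted p = 0.0138 by edgeR's quasi-likelihood test). Col1a2, a collagen gene, had -1.83 (adjusted p = 0.0622) and Eln, the elastin gene, had -0.34 (adjusted p = 0.0922), and neither passed with all 6 libraries by edgeR. Col1a2 passed by DESeq2's Wald test (0.0131) and by edgeR without CTRL 2 (0.0349) or RbpjΔEC 3 (0.0207). Pi16 did not pass without CTRL 3 (0.0731) or RbpjΔEC 1 (0.0742). The defining fibroblast genes were nearly absent, with Dpt at 0 in all 6 libraries, and without Pi16 and Eln the list summed to 2.49 to 3.69 CPM in CTRL and 0.915 to 1.87 CPM in RbpjΔEC.

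**Figure D4:**
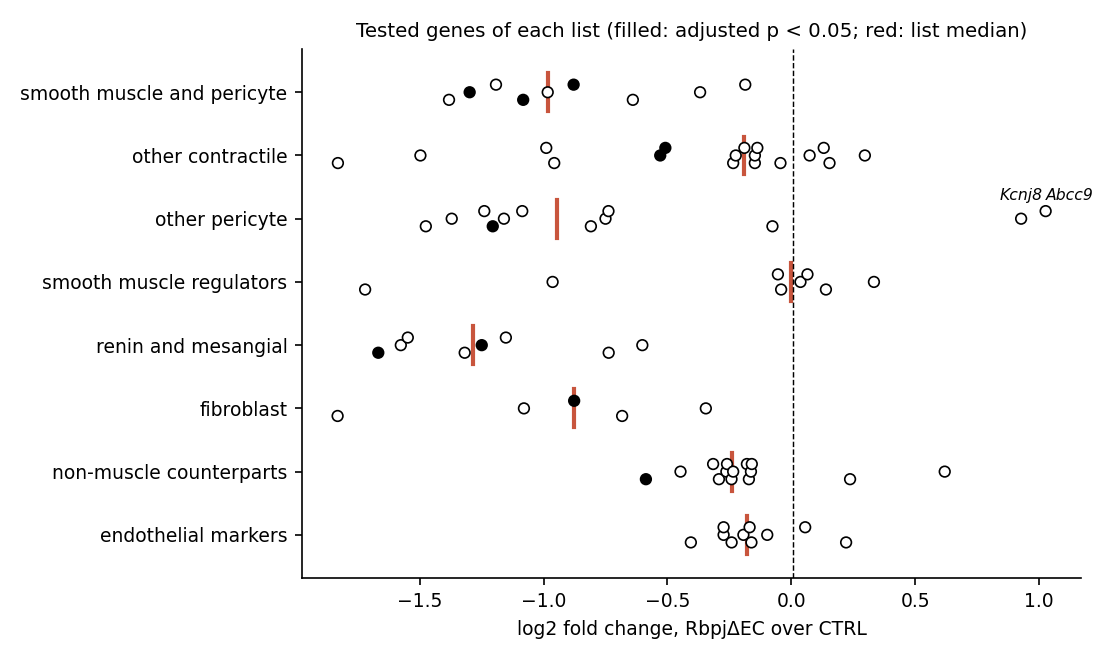
Log2 fold change (RbpjΔEC over CTRL) of each tested gene by list, with a point per gene, filled where the adjusted p passed 0.05, a red bar at the list median and a dashed line at the median of all tested genes. The medians are -0.98 for the smooth muscle and pericyte genes, -0.95 for the other pericyte genes, -1.28 for the renin and mesangial genes and -0.24 for the non-muscle counterparts.

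Markers of other kidney and blood cells were read beside these values. Of 10 leukocyte markers 4 were tested, 1 was called, higher (Cd68), and the list summed to 14.5 to 15.6 CPM in CTRL and 23.3 to 28.2 CPM in RbpjΔEC, with Cd3e at 0 in all libraries. Of 6 platelet markers 3 were tested and 0 called by edgeR, with 0 at an unadjusted p under 0.05 and 0 by DESeq2, and sums of 4.69 to 8.55 CPM in CTRL and 5.39 to 6.96 CPM in RbpjΔEC. All 7 tubule markers were tested, 5 were lower and 2 higher, 1 was called, lower (Atp6v1b1), and the sums were 273.1 to 418.2 CPM in CTRL and 97.4 to 362.9 CPM in RbpjΔEC. The 5 tubule markers other than Lrp2 and Slc34a1 summed to 210.8 to 398.3 CPM in CTRL and 48.9 to 160.1 CPM in RbpjΔEC. All 5 podocyte markers were tested, 4 were lower and 0 called by edgeR, with 1 at an unadjusted p under 0.05 and 1 called by DESeq2, and the sums, most of them from Podxl and Synpo, which other cells express too, were 3184 to 3564 CPM in CTRL and 2591 to 2859 CPM in RbpjΔEC. The summed levels of those 5 tubule markers and of the podocyte markers were lower in each RbpjΔEC library than in each CTRL library. The part of these cell types in the results for the smooth muscle and pericyte genes was not tested.

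Genes of the same protein families as the contractile genes, Des and Rgs5, listed as non-muscle counterparts, were read beside them. All 14 were tested, 12 were lower and 2 higher, 1 was called and the median log2 fold change was -0.24, or -0.16 without CTRL 1. At an unadjusted p under 0.05, 9 of the 14 were lower, and in 9 of the 14 every RbpjΔEC library lay below every CTRL library, beside the same 8.62% and 11.6% of all tested genes. Beside Acta2, the cytoplasmic actins Actb and Actg1 had log2 fold changes of -0.23 (adjusted p = 0.210 by edgeR's quasi-likelihood test) and -0.26 (adjusted p = 0.15). Beside Myh11, the non-muscle myosins Myh9 and Myh10 had -0.17 (adjusted p = 0.339) and -0.26 (adjusted p = 0.110).

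Beside Myl9, the non-muscle light chains Myl12a and Myl12b had log2 fold changes of -0.24 (adjusted p = 0.138 by edgeR's quasi-likelihood test) and -0.29 (adjusted p = 0.181). Beside Tpm2, Tpm3 had 0.24 (adjusted p = 0.102) and Tpm4 had -0.18 (adjusted p = 0.249), values of opposite sign. Tagln2 had -0.16, Cnn2 -0.32 and Cnn3 -0.16, with adjusted p-values of 0.421, 0.0635 and 0.230, and Cnn2 passed by DESeq2 (0.0372) and by edgeR without CTRL 2 (0.0314). Beside Des, the EC intermediate filament gene Vim fell from 254.5 ± 38.3 CPM to 169.5 ± 8.28 CPM (SD, n = 3 each), a log2 fold change of -0.59 (adjusted p = 0.0227), and was the one counterpart called, though not without CTRL 3 (0.0731), RbpjΔEC 1 (0.123) or RbpjΔEC 2 (0.0681). Beside Rgs5, Rgs4 had -0.45 (adjusted p = 0.779) and Rgs16 had 0.62 (adjusted p = 0.251). The level of Rgs4 was low, at 0.544 ± 0.380 CPM in CTRL (SD, n = 3).

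The differences in log2 fold change between a muscle gene and its counterpart were not tested. The other muscle actins were close to absent: Actg2 had 2, 1 and 2 counts in CTRL and 0 in each RbpjΔEC library, Acta1 had 8, 3 and 4 against 8, 7 and 9, and Actc1 had at most 2. Few stretches of Acta2 and Myh11 could be confused with these relatives, since 0.880% of the 38-base words of Acta2 and 0.655% of those of Myh11 occur in another gene.

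**Figure D5:**
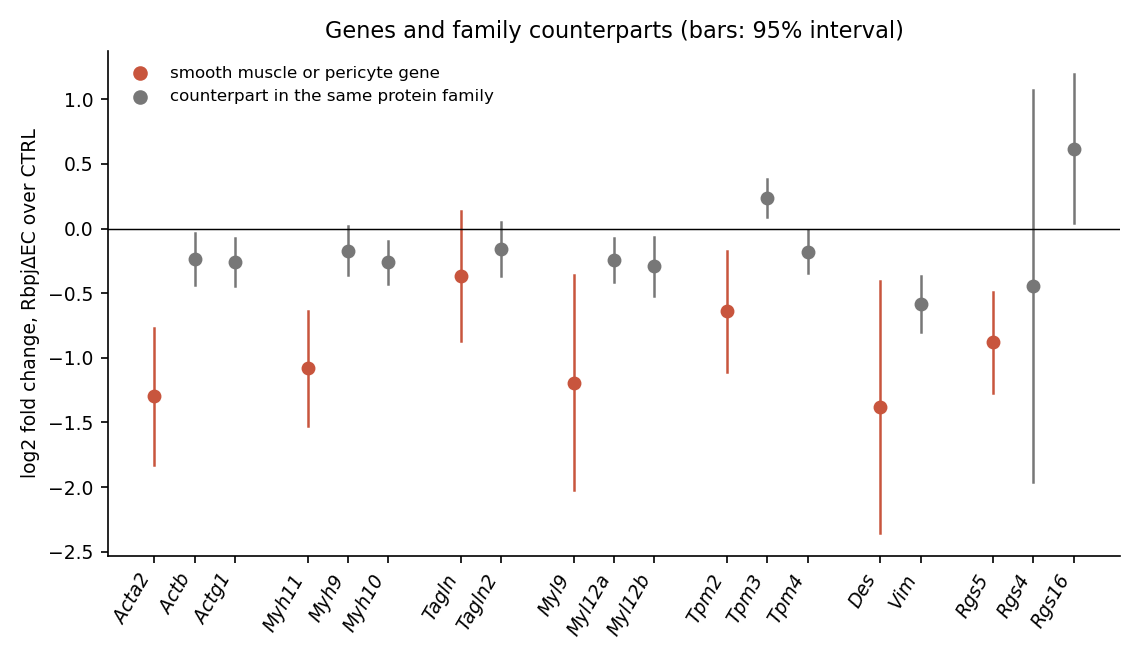
Log2 fold change (RbpjΔEC over CTRL) of 7 smooth muscle and pericyte genes (red) and of counterparts in the same protein families (grey), with bars for the 95% interval. Acta2 (-1.30) and Myh11 (-1.08) lie further from 0 than Actb (-0.23) and Myh9 (-0.17).

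Among 10437 genes with a mean of at least 5 CPM, those whose log2 CPM over the 6 libraries ran most like the mean of the smooth muscle and pericyte genes were Atg101 (Pearson r 0.998), Lpl (0.995), Atp13a3 (0.993), Bmp2, Eif3a, Ppp1r1a, Slc8a1, Ddr1, Kmt2c and Eya3 (0.985). The likeness is a description over 6 libraries that share the split into genotypes, and 287 genes had r above 0.9. The log2 fold changes of the 10 named genes ran from -0.10 for Eya3 to -1.65 for Ppp1r1a. Slc8a1, the sodium-calcium exchanger gene, had -1.08, Ddr1, a collagen receptor gene, had -1.33, and Lpl, the lipoprotein lipase gene, had -0.84. Atg101, an autophagy gene and the most alike, had a log2 fold change of only -0.18.

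Scaling bears on these values, because the summed endothelial markers were lower in RbpjΔEC too. With counts scaled to the 10 endothelial markers, a choice made after seeing the data, the median of all genes moved to 0.16 and calls over all genes split into 52 lower and 384 higher, against 103 and 106. Library size alone gave 82 lower (0.445%) and 159 higher. The 9 genes stayed lower under each scaling, as did the 8 renin and mesangial and 5 fibroblast genes, while with the endothelial markers as the scale the other contractile genes split into 9 lower and 8 higher, the other pericyte genes into 9 and 3 and the regulators into 2 and 6. The non-muscle counterparts stayed at 12 lower and 2 higher, with a median of -0.08. On that scale 2 of the 9 genes were called, beside 0.282% of all tested genes called lower. Acta2 had a log2 fold change of -1.14 (adjusted p = 0.0422 by edgeR's quasi-likelihood test) and Myh11 had -0.92 (adjusted p = 0.0430), and both were still called, while Rgs5 had -0.73 and was not (adjusted p = 0.0691).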

How the data were processed

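RNA-seq of sorted kidney ECs from 3 CTRL and 3 RbpjΔEC mice was used, 1 library per mouse, grouped by the sample labels. The authors prepared stranded libraries, trimmed reads with Trim Galore 0.6.4, aligned them with STAR 2.6.1d to GRCm38.p6 and deposited whole-number counts per gene from featureCounts (Subread 1.6.4), without normalization. These counts were turned into CPM (TMM factors) and tested with edgeR 4.0.16 in R 4.3.3 (filterByExpr, estimateDisp, glmQLFit with robust estimation, glmQLFTest). P-values were adjusted by the Benjamini-Hochberg method over 18438 genes, with a threshold of 0.05. The SE is the log2 fold change divided by the root of F. DESeq2 1.42.0 and limma 3.58.1 were alternatives. Gene positions, exon lengths and 38-base words came from GENCODE M21 on GRCm38, while the authors counted on release M25. Promoters came from RefSeq. The genes and lists were chosen with earlier results of these data known. Of the other lists, the 3 genes with the smallest p, every non-muscle counterpart and muscle actin, and the 10 genes most alike over libraries were to be named. Intervals from counts cover counting error only. No 2 libraries held identical counts.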

Additional observations from a re-analysis of the deposited data

How the results depend on the processing

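The 9 tested smooth muscle and pericyte genes were lower in RbpjΔEC under every alternative run. Of 126 alternative values of their fold changes, 102 kept their side of the threshold, 15 lost it, 9 gained it and 0 reversed. With no low-count filter 1436 genes were called instead of 209, and the called genes numbered 6 of the smooth muscle and pericyte genes instead of 3, 4 other contractile instead of 2, 6 other pericyte instead of 1, 1 regulator instead of 0, 5 renin and mesangial instead of 2, 3 fibroblast instead of 1 and 7 non-muscle instead of 1. DESeq2's Wald test called 584, and in the same order 6, 3, 5, 1, 4, 2 and 2. The filter of at least 1 CPM in 3 libraries left 1 smooth muscle and pericyte gene called. Library size alone called 1 regulator. Scaling to the endothelial markers called 436 genes, with 1 other contractile, 1 regulator and 2 non-muscle genes. Leaving out each library in turn gave 21 to 700 called genes, with 0 to 6 smooth muscle and pericyte, 0 to 4 other contractile, 0 to 6 other pericyte, 0 to 1 regulator, 0 to 6 renin and mesangial, 0 to 2 fibroblast and 0 to 3 non-muscle genes. The mice share only replicate numbers: deviations of same-numbered libraries correlated at 0.0231, 0.00916 and 0.00544. With the replicate number as a block, 344 genes were called, 3 of them smooth muscle and pericyte genes, 3 other pericyte and 2 fibroblast. The cause of these shifts was not tested. Genes under 1 CPM are limited by depth.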
